A study of Mus musculus with 8 samples.

Results

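Very long protein-coding genes are the subject here: 134 mouse genes with an annotated span of at least 400 kb whose RNA was measured in nuclei of HL1 cells. GENCODE M21 annotates 339 autosomal coding genes of that length. Of these, 201 were the best same-strand match of an assembled locus of the short-read table, 191 shared at least 0.5 of the joint span with it (the Jaccard index of the spans), and 143 had a mean of at least 10 normalized counts over the 6 short-read libraries. A further 9 were left out by symbol (Cacna1c, Cacna1d, Cacna2d1, Cacna2d3, Kcnd2, Kcnh7, Kcnn2, Ryr2 and Ctnna3), which left 134 members among the 65173 mouse entries of the table. The members were selected on their mean level over both fractions, and that level is therefore a description and no finding. In nucleoplasm alone 133 of 134 members reached a mean of 10, and only Sntg1, a syntrophin, reached it through chromatin (means 31.9 and 9.91).

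Long genes pose a problem of time, since RNA polymerase II needs hours to cross them and most of what it makes is intron. Introns are largely removed while the transcript is still tethered to its template, and a nucleus therefore holds unfinished transcripts on chromatin beside finished messages that are free in the nucleoplasm. Genes of this size encode many adhesion proteins, scaffolds and transcription factors, several lie over common fragile sites, and in heart muscle they include utrophin, ankyrin G and a sarcoglycan of the membrane skeleton.

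HL1 is a line of mouse cardiac muscle cells that descends from an atrial tumour line, and all groups were the same untreated line in supplemented Claycomb medium with serum, norepinephrine, ascorbic acid and glutamine. Nuclei were extracted with urea and detergent, the pellet being the chromatin fraction and the supernatant the nucleoplasm fraction. Each fraction had 3 short-read libraries from independent cultures, and chromatin RNA with an added poly(A) tail had 2 long-read libraries with no nucleoplasm counterpart. The characteristics field of the labels gives chromatin for all 6 short-read libraries, while titles name 3 of them nucleoplasm, and the titles were used. Short-read values are normalized counts, deposited as gene counts divided by a library factor and not scaled for length. For replicates 1 to 3 the depth was 100595246, 93400735 and 91657034 recovered reads (chromatin) and 102000472, 96684935 and 121773350 (nucleoplasm). Of those, 3623350, 3267757 and 3244733 reads in chromatin and 1084481, 839559 and 1410115 in nucleoplasm fell in members. Values of a gene are given below in the order of replicates 1 to 3.

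Of 15 cardiomyocyte markers 12 were matched to a locus by the same overlap rule; Myh6, Myh7 and Tnnt2 were not matched and were not used here. All 12 had a mean of at least 10, and 4 were called higher and 2 lower in chromatin. The most abundant was Ttn, which encodes titin, and Nppa was the lowest at 26.4, 25.2 and 10.4 in chromatin and 101.1, 112.7 and 15.9 in nucleoplasm. Summed over the 12, the markers stood at 2563780, 2426560 and 1236950 in chromatin and 488094, 476563 and 298242 in nucleoplasm. Ttn alone was 2359210, 2218580 and 1094140 of it in chromatin and 318157, 291354 and 199751 in nucleoplasm, so it carried most of the sum. The other 11 summed to 204570, 207976 and 142816 in chromatin and 169936, 185209 and 98490.7 in nucleoplasm, and the median log2 fold change of the 12 was -0.73. Replicate 3 was the lowest library of its fraction with and without Ttn, though not for every gene, Gata4 being highest there. Of 10 fibroblast markers 4 were matched (Col1a1, the most abundant, Col3a1, Pdgfra and Dcn), with sums of 120627, 135555 and 173752 in chromatin and 259124, 253737 and 460521 in nucleoplasm, the highest in replicate 3 of each fraction. Neuronal markers were matched for 5 of 14, with Map2 the most abundant, endothelial markers for 3 of 10, led by Kdr, smooth muscle markers for 5 of 8, led by Acta2, and leukocyte markers for 1 of 10, Csf1r. No matched marker was at 0 in all libraries.

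Replicate 3 also stood apart among the very long genes. In chromatin, 15 members differed by more than 2 fold between replicates 1 and 3 and 15 between 2 and 3, against 1 between replicates 1 and 2. In nucleoplasm the counts were 13, 14 and 2. Members that lay more than 2 fold from the mean of replicates 1 and 2 in both fractions numbered 12, and each went the same way in both. Higher in replicate 3 were Pcdh9, Ptprd, Epha6, Lrp1b, Sntg1, Camk1d, Dlg2, Tenm4 and Spock3, and lower were Clstn2, Unc13c and Ntm. The widest was Pcdh9, a protocadherin, at 102, 104 and 4157 in chromatin and 33.3, 30.0 and 1955 in nucleoplasm. The libraries numbered 3 thus held far more of this RNA in both compartments, and its ranges in chromatin and nucleoplasm overlapped. Over the 134 members the deviation of replicate 3 in chromatin and in nucleoplasm had a Pearson r of 0.958. Its part in any result, and that of the marker shifts above, was not tested, and the counts of calls by length, level and role are given below with and without the libraries numbered 3.

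RNA of very long genes was mostly higher in chromatin. Of 134 members 94 (70.1%) were called higher in chromatin, 6 (4.48%) lower and 34 neither, by limma over all 35830 entries above 0 in at least 1 library at a Benjamini-Hochberg adjusted p under 0.05; among all entries 26.9% were called higher and 20.9% lower. Calls above 4 fold numbered 32 (23.9%), beside 15.7% of all entries. The median log2 fold change of members was 1.28 (quartiles 0.54 and 1.95, range -1.49 to 3.99), while that of all entries was 0.38. Between replicates of a fraction, fewer cells of a type and less RNA per cell cannot be told apart in bulk samples. Every called member had fraction ranges that did not meet. In 97 members all chromatin values lay above all nucleoplasm values, in 8 all lay below, and in 29 the ranges overlapped. With 3 against 3 libraries, chance alone separates 10%. The share of all entries with separate ranges was not counted, so these counts do not set members apart from other entries. The uncalled members without overlap were Erbb4, Gphn and Trpm3 above and Kirrel3 and Sdk1 below. Between libraries of equal number, 110 members were higher in chromatin in all 3 differences, 15 lower in all 3 and 9 mixed, again counted for members only. With the replicate number as a block, 105 members were called higher, 12 lower and 17 neither. That fit called 10304 of the 35830 entries higher and 8455 lower. Without both libraries numbered 3, a fit chosen after seeing the data, 102 members (76.1%) were called higher, 12 (8.96%) lower and 33 above 4 fold, while among all entries 27.6% were called higher and 22.6% lower.

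Scaling moved the balance of calls. When libraries were scaled by their ERCC standards, the median of all entries shifted by 0.45 on the log2 scale and calls among all entries went from 56.3% higher to 80.0% higher; 110 members were then called higher, 0 lower and 65 above 4 fold. Relative to the median of all entries, the median of members was 0.90 higher as deposited and 1.18 higher with ERCC scaling. The step from 0.90 to 1.18 does not show a greater excess of members. ERCC scaling took the median of members from 1.28 to 2.004, a larger move than that of the median of all entries. Each library was scaled as a whole, and entries near 0 move less because 1 is added to every count before the log2. Quantile normalization, which shifted the median of all entries by -0.37, left members 1.20 above it. An equal volume of diluted standards had gone into every nuclear fraction ahead of RNA extraction, so ERCC scaling relates a gene to what each fraction yielded, while the deposited values relate it to the other RNA of its library. The labels give no count of nuclei.

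Fold change climbed with gene length across all coding loci found by the same rule, 10102 with a mean of at least 10. Their overall median was -0.36. By length, the median log2 fold change was -0.87 for the 4931 loci under 25 kb, -0.23 for 2194 of 25 to 50 kb, 0.10 for 1575 of 50 to 100 kb, 0.37 for 899 of 100 to 200 kb, 0.76 for 360 of 200 to 400 kb and 1.28 for the 143 of 400 kb or more, left-out symbols included. The share called higher went from 14.3% in the shortest class to 28.1%, 37.3%, 46.4%, 58.3% and 69.9%, and the share called lower from 62.4% to 39.0%, 26.7%, 19.1%, 9.17% and 4.20%. Without the libraries numbered 3 the shares called higher were 15.5%, 31.4%, 42.8%, 51.7%, 68.3% and 76.9%, and the shares called lower 64.8%, 44.8%, 31.5%, 26.4%, 13.1% and 8.39%. Within the very long genes the trend was faint, with a Spearman rho of 0.11 between length and log2 fold change (n = 134 members, which share libraries). Median fold changes were 1.16 for 48 members under 500 kb, 1.22 for 46 of 500 to 700 kb, 1.35 for 25 of 700 kb to 1 Mb and 1.59 for 15 of 1 Mb or more, while the shares called higher were 70.8%, 78.3%, 60.0% and 60.0% (without the libraries numbered 3, 77.1%, 82.6%, 68.0% and 66.7%) and did not climb with length.

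**Figure D1:**
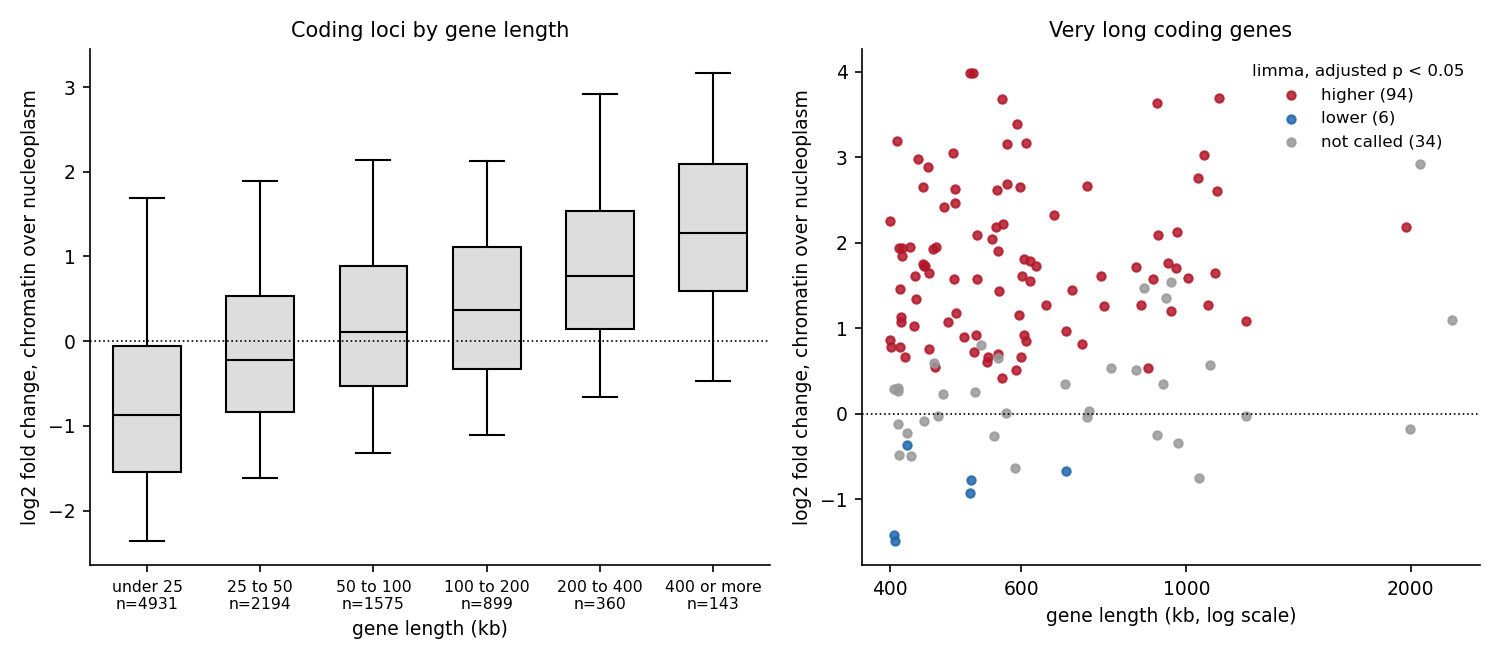
Left, log2 fold change of chromatin over nucleoplasm for 10102 coding loci by gene length in kb (boxes give quartiles and median, whiskers the 5th and 95th percentiles). Right, the same for each of the 134 very long coding genes against its length on a log axis, coloured by the limma call; medians climb from -0.87 to 1.28 with length class, while among very long genes calls in both directions occur.

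Level and length both served to choose members, and the mean count holds the chromatin values of the fold change itself, so these figures are only descriptive. Across members the log2 fold change had a rho of 0.40 with the mean normalized count, 0.39 with the count per kb of exon and 0.11 with the nucleoplasm mean, and of 0.13 with exonic length, 0.03 with the number of exon blocks and -0.32 with the Jaccard index (n = 134 each). Of 53 members with a mean of 10000 or more, 48 were called higher and 1 lower, with a median of 1.76. Of 54 with a mean of 1000 to 10000, 33 were called higher and 3 lower (median 0.85). The 17 members with a mean of 100 to 1000 had 11 higher and 2 lower calls, and the 10 below 100 had 2 and 0. From the highest class down, calls without the libraries numbered 3 were 50 higher and 3 lower, 39 and 7, 11 and 2, and 2 and 0. Exons made up a median of 1.72% of a member's span (range 0.131% to 10.3%), the median span being 558.6 kb.

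As a share of all mouse signal, member loci took 3.61%, 3.51% and 3.55% of the chromatin libraries (mean 3.55, SD 0.052, n = 3) and 1.07%, 0.871% and 1.16% of the nucleoplasm libraries (mean 1.03, SD 0.148, n = 3). Every chromatin share was thus at least 3 times every nucleoplasm share. The 5 most abundant members carried 37.6%, 37.7% and 39.6% of the member signal in chromatin and 28.5%, 27.5% and 32.1% in nucleoplasm.

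Adhesion and cell surface genes numbered 24 members, of which 9 (37.5%) were called higher, 1 (4.17%) lower and none above 4 fold, with a median of 0.80; among all members 70.1% were called higher and among all entries 26.9%. Differences between roles were not tested. Without the libraries numbered 3, 13 (54.2%) were called higher and 4 (16.7%) lower (median 0.85), Cdh13, Adamtsl1 and Sdk1 joining Ptprg as falls and Erbb4, Pcdh9, Ptprm and Ptprn2 joining the rises. With ERCC scaling none of these 4 falls was called: Adamtsl1 stood at 0.49, Sdk1 at 0.40, Ptprg at 0.061 and Cdh13 at -0.021. They are falls of the matched loci alone. Sdk1, Cdh13 and Ptprg, but not Adamtsl1, each held 1 other same-strand locus that touches exons, called higher in the main fit. That of Sdk1 stood at 89768, 81852 and 75411.5 in chromatin and 4485, 3449 and 5094 in nucleoplasm. That of Cdh13 stood at 4196, 3923 and 3316 in chromatin and 232, 223 and 237 in nucleoplasm. Tenm3, a teneurin that joins cells at contacts, was the member with the highest level per kb of exon (22085) and stood at 339032, 311469 and 398661 in chromatin and 90660.0, 84401 and 132305 in nucleoplasm. Replicate 3 was the highest in each fraction, and the ranges did not meet (log2 fold change 1.79, standard error 0.23, limma adjusted p = 0.00107). Pcdh7, a protocadherin, stood at 127194, 114386 and 128855 in chromatin and 33075, 30866 and 39245 in nucleoplasm. All its chromatin values were above 3 times the nucleoplasm mean of 34395 (log2 fold change 1.85, standard error 0.14, limma adjusted p = 1.17e-04). Hmcn1 encodes hemicentin 1, a giant matrix protein, and stood at 89024, 87523 and 50788 in chromatin and 42210.0, 40503 and 27534 in nucleoplasm. Here replicate 3 was the lowest of both fractions, yet the ranges did not meet (log2 fold change 1.02, standard error 0.29, limma adjusted p = 0.0268). Ptprn2, a phosphatase-like protein of secretory granules, stood at 34776, 32937 and 52538 in chromatin and 24690.4, 21764 and 36737 in nucleoplasm. Its replicate 3 value in nucleoplasm was above replicates 1 and 2 of chromatin, and the gene was not called (log2 fold change 0.54, standard error 0.27, limma adjusted p = 0.156; without the libraries numbered 3, 0.55, adjusted p = 0.0309). Other calls in the list were for Sema5a, a semaphorin (1.64), Ptprk (1.57), Ntm (1.71), Fat3, an atypical cadherin (0.52), Nrg1 and Sgcd.

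Scaffold, cytoskeleton and trafficking genes, 36 members, had 29 (80.6%) called higher, 0 lower and 9 above 4 fold (median 1.52), or 33, 0 and 9 without the libraries numbered 3. In the main fit 70.1% of all members were called higher, 4.48% lower and 23.9% above 4 fold. Among all entries these shares were 26.9%, 20.9% and 15.7%. Magi1, a scaffold of cell junctions, stood at 198583, 186160.0 and 140353 in chromatin and 21193, 18996 and 17675 in nucleoplasm. Every chromatin value was at least 6 times any nucleoplasm value (log2 fold change 3.17, standard error 0.17, limma adjusted p = 4.22e-05). Diaph3, a formin that elongates actin filaments, stood at 103217, 89964 and 101602 in chromatin and 12349, 10337 and 12985 in nucleoplasm. Its groups were as far apart (log2 fold change 3.05, standard error 0.13, limma adjusted p = 2.62e-05). Dst, the cytoskeletal linker dystonin, lies just inside the length threshold and stood at 171075, 156387 and 140515 in chromatin and 33684, 30044 and 33945 in nucleoplasm. Chromatin replicates were in descending order from 1 to 3, while nucleoplasm varied little (log2 fold change 2.26, standard error 0.13, limma adjusted p = 5.06e-05). Nbea, neurobeachin, which acts in membrane traffic, stood at 97956, 88659 and 86302 in chromatin and 25637, 23646 and 23644 in nucleoplasm. Replicates were close within each fraction (log2 fold change 1.90, standard error 0.10, limma adjusted p = 4.66e-05). In the same list Rabgap1l (2.69) and Cep112 (2.98) were also called above 4 fold. Not called in the main fit were Kif26b (0.31, adjusted p = 0.521), Syne1, Trappc9, Ttc28, Atp8a2, Immp2l and Sntg1. Without the libraries numbered 3, Kif26b (0.37, limma adjusted p = 0.00916), Syne1, Trappc9 and Atp8a2 were called higher. With ERCC scaling all of these members but Sntg1 were called higher (Kif26b 1.04, limma adjusted p = 0.0262).

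Of 20 signalling genes and enzymes 11 were called higher, 4 (20.0%, near the 20.9% of all entries) lower and 5 neither, with 5 above 4 fold and a median of 1.08, and the same counts without the libraries numbered 3. The list as written also holds Slc39a11 (a zinc transporter), Spock3 (a proteoglycan), Syt1 and Syn3 (synaptic vesicle proteins), Trpm3 (a cation channel) and Cdkal1 (a tRNA-modifying enzyme), and all 4 falls but Ppp2r2b are among these. Fbxl17, an F-box protein of a ubiquitin ligase, stood at 50638, 45941 and 51589 in chromatin and 8127, 7297 and 8155 in nucleoplasm. Replicates were tight in each fraction (log2 fold change 2.65, standard error 0.10, limma adjusted p = 2.31e-05). Fgf12, an intracellular FGF homologous factor that binds sodium channels, stood at 41943, 40423 and 20842 in chromatin and 4052, 3329.5 and 2263 in nucleoplasm. Replicate 3 was about 2 fold lower in chromatin and lowest in nucleoplasm too, and the ranges remained apart (log2 fold change 3.39, standard error 0.34, limma adjusted p = 4.07e-04). Cdk14, a cyclin-dependent kinase, stood at 26168, 23869 and 21149.8 in chromatin and 9414, 8282 and 6622 in nucleoplasm. Both fractions declined from replicate 1 to 3 (log2 fold change 1.56, standard error 0.16, limma adjusted p = 4.13e-04). Rgs6, a brake on G protein signalling in atrial cells, stood at 24462, 23345 and 15767 in chromatin and 2763, 2577 and 1781 in nucleoplasm. The chromatin values were more than 5 fold above every nucleoplasm value (log2 fold change 3.16, standard error 0.24, limma adjusted p = 1.31e-04).

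Transcription and chromatin genes, 20 members, gave 18 calls higher, 0 lower and 6 above 4 fold (median 1.69), or 18, 0 and 7 without the libraries numbered 3. For comparison, the main fit called 70.1% of all members higher, 4.48% lower and 23.9% above 4 fold. Of all entries it called 26.9%, 20.9% and 15.7%. The list as written also holds Atrnl1, Macrod2 and Rad51b, which are not transcription factors. Nfib, a nuclear factor I gene, stood at 320490.0, 294245 and 401588 in chromatin and 90112, 78111 and 95761 in nucleoplasm. Replicate 3 was highest in chromatin and in nucleoplasm (log2 fold change 1.94, standard error 0.18, limma adjusted p = 3.17e-04). Its assembled locus shares only 0.51 of the joint span with the gene, the least of all members. Zbtb20, a zinc finger repressor, stood at 260859, 251852 and 201865 in chromatin and 90023, 78963 and 65349.8 in nucleoplasm. Replicate 3 was lowest in each fraction, without overlap between them (log2 fold change 1.61, standard error 0.19, limma adjusted p = 7.37e-04). Auts2, a gene of chromatin regulation in neurons, stood at 267047, 245796 and 195295 in chromatin and 20664, 16628 and 17299.9 in nucleoplasm. Chromatin was above nucleoplasm by more than 9 fold in every pairing of libraries (log2 fold change 3.69, standard error 0.17, limma adjusted p = 2.96e-05). Foxp1, a forkhead factor of heart development, stood at 51671, 48172 and 50817 in chromatin and 8984, 8137 and 6915 in nucleoplasm. Its chromatin values varied little, and nucleoplasm went down from replicate 1 to 3 (log2 fold change 2.66, standard error 0.12, limma adjusted p = 2.94e-05). Macrod2 (-0.17, adjusted p = 0.547) and Rora (-0.04, adjusted p = 0.844) were the uncalled members of the list. With ERCC scaling both were positive, and Rora was called higher (0.69, limma adjusted p = 0.0132) while Macrod2 was not called (0.56).

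The RNA-binding list had 2 members, both called above 4 fold at their matched loci with or without the libraries numbered 3. Rbms3, which binds AU-rich RNA, stood at 78111, 70513 and 79460.0 in chromatin and 9199.9, 8294 and 10564 in nucleoplasm. Its lowest chromatin value was more than 6 times its highest nucleoplasm value (log2 fold change 3.03, standard error 0.12, limma adjusted p = 2.57e-05). Celf2, a regulator of alternative splicing, stood at 27950.1, 25324 and 31174 in chromatin and 6473, 5633 and 7192 in nucleoplasm. Replicate 3 was highest on both sides (log2 fold change 2.13, standard error 0.13, limma adjusted p = 6.30e-05). Another same-strand locus inside Celf2, which touches its exons, held more signal and was less than 4 fold higher in chromatin. It stood at 116937, 129778 and 198421 in chromatin and 65834, 87328 and 86097 in nucleoplasm. It was called higher, with a log2 ratio of means of 0.90.

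The largest rises came from several roles. Besides Auts2, Fgf12 and Magi1, these were Rasgef1b, Rad51b, Smyd3, Wwox and Zfp385b. Rasgef1b, an exchange factor for Ras-family GTPases, stood at 9433, 8596 and 3987 in chromatin and 574, 452 and 309 in nucleoplasm. Replicate 3 had less than 1 in 2 of the chromatin signal of replicate 1, and the fractions were still more than 6 fold apart (log2 fold change 3.99, standard error 0.39, limma adjusted p = 3.62e-04). Rad51b, a gene of recombination repair, stood at 19130.4, 17775 and 22033 in chromatin and 1215, 962 and 1624 in nucleoplasm. In it replicate 3 was the highest of each fraction (log2 fold change 3.98, standard error 0.20, limma adjusted p = 3.82e-05). Smyd3, a lysine methyltransferase, stood at 47437, 42581 and 49628 in chromatin and 3628, 2962 and 4419 in nucleoplasm. The 3 chromatin values were close together and nucleoplasm varied by less than 2 fold (log2 fold change 3.68, standard error 0.16, limma adjusted p = 2.84e-05). Wwox, an oxidoreductase over a fragile site, stood at 26286, 24669 and 29838 in chromatin and 1986, 1848 and 2757 in nucleoplasm. The 3 chromatin values all lay far above the highest of nucleoplasm, which was replicate 3 (log2 fold change 3.63, standard error 0.17, limma adjusted p = 3.26e-05). Zfp385b, a zinc finger gene, stood at 17169.7, 15456 and 11698 in chromatin and 1859, 1650.4 and 1332 in nucleoplasm. Both fractions declined in replicate 3 (log2 fold change 3.19, standard error 0.19, limma adjusted p = 5.77e-05).

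**Figure D2:**
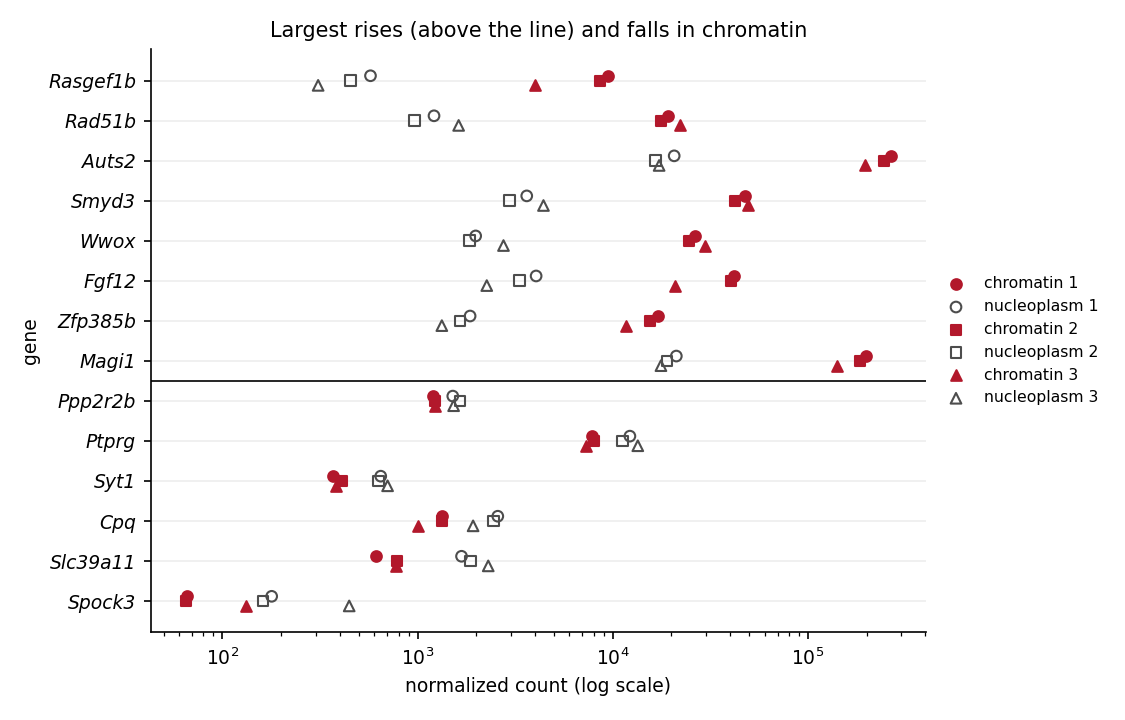
Normalized counts on a log axis of the 8 largest rises (above the line) and all 6 falls, with a symbol for each replicate, filled for chromatin and hollow for nucleoplasm. In each gene the filled and hollow symbols do not overlap, and the log2 fold change is farthest from 0 for Rasgef1b (3.99) and nearest to it for Ppp2r2b (-0.36).

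In the main fit of all 6 libraries 6 members were called lower in chromatin. With the replicate number as a block 12 were called lower, these 6 among them. Spock3, a testican proteoglycan, stood at 66.1, 65.0 and 132 in chromatin and 179, 162 and 446 in nucleoplasm. Replicate 3 was about 2 fold or more above the others in both fractions, and its chromatin value came near the nucleoplasm values of replicates 1 and 2 without reaching them (log2 fold change -1.49, standard error 0.48, limma adjusted p = 0.0462). Without the libraries numbered 3 its log2 fold change was -1.36, adjusted p = 0.00503. Slc39a11, a zinc transporter, stood at 615, 787 and 778 in chromatin and 1681, 1866 and 2303 in nucleoplasm. Nucleoplasm was at least 2 fold above every chromatin value (log2 fold change -1.42, standard error 0.16, limma adjusted p = 6.54e-04). Cpq, a secreted carboxypeptidase, stood at 1333, 1338 and 1004 in chromatin and 2578, 2447 and 1926 in nucleoplasm. The highest chromatin value lay well below the lowest of nucleoplasm (log2 fold change -0.92, standard error 0.17, limma adjusted p = 0.00495). Syt1, the calcium sensor of synaptic vesicle release, stood at 367, 409.8 and 381 in chromatin and 648, 630.4 and 702 in nucleoplasm. Replicates were close in each fraction (log2 fold change -0.77, standard error 0.10, limma adjusted p = 0.00109). Ptprg, a receptor tyrosine phosphatase, stood at 7868, 8009 and 7258 in chromatin and 12254, 11253 and 13451 in nucleoplasm. The same order held in all replicates (log2 fold change -0.67, standard error 0.10, limma adjusted p = 0.00187). This fall is that of the matched locus alone. Another same-strand locus inside Ptprg, which touches its exons, went the other way and was called higher. It stood at 34555, 31198 and 34970 in chromatin and 1746, 1352 and 2294 in nucleoplasm. Ppp2r2b, a regulatory subunit of protein phosphatase 2A, stood at 1197, 1224 and 1235 in chromatin and 1516, 1649 and 1531 in nucleoplasm. Its gap was the smallest of any called member (log2 fold change -0.36, standard error 0.08, limma adjusted p = 0.00902). With ERCC scaling none of the 6 was called, and Ptprg and Ppp2r2b had positive values (0.061 and 0.37). The further falls without the libraries numbered 3 were Cdh13 (-0.84), Clstn2 (-0.54), Ncald (-0.56), Fras1 (-0.38), Sdk1 (-0.34) and Adamtsl1 (-0.31), named after their values were seen. With ERCC scaling of all 6 libraries none of these was called. Cdh13 was then at -0.021, and Clstn2 (0.11), Ncald (0.24), Fras1 (0.26), Sdk1 (0.40) and Adamtsl1 (0.49) had positive values. The further falls too are those of the matched loci alone. Inside Cdh13, Sdk1 and Ncald, but not the others, another same-strand locus that touches exons was called higher in the main fit.

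Of the 5 longest members 3 were faint at their matched loci. Ptprd, a receptor phosphatase of 2271 kb, was at 6.10, 0 and 74.9 in chromatin and 0, 0 and 54.4 in nucleoplasm. Nearly all of its signal came from replicate 3, and it was not called (log2 fold change 1.09, standard error 2.19, limma adjusted p = 0.698). Lrp1b, a lipoprotein receptor gene of 2058 kb, stood at 31.5, 23.1 and 329.9 in chromatin and 0, 7.19 and 72.5 in nucleoplasm. Replicate 3 again exceeded the others in both fractions, and the gene was not called with it (log2 fold change 2.92, standard error 1.78, limma adjusted p = 0.239) or without (log2 fold change 3.29, adjusted p = 0.172). Inside Lrp1b, 2 other same-strand loci that touch its exons held more signal and went the other way, with 1 called lower. They summed to 2222, 2449 and 2410 in chromatin and 10049, 9612 and 10588 in nucleoplasm. Dlg2, a synaptic scaffold of 1973 kb, stood at 69.1, 69.2 and 263 in chromatin and 15.2, 18.0 and 44.2 in nucleoplasm. Replicate 3 was over 2 fold higher in each fraction, and the ranges did not overlap (log2 fold change 2.18, standard error 0.67, limma adjusted p = 0.0386; without the libraries numbered 3, 2.002, adjusted p = 0.00844). Macrod2, an ADP-ribose hydrolase of 1998 kb, stood at 532, 559.6 and 801 in chromatin and 636, 602 and 891 in nucleoplasm. Its ranges overlapped, with replicate 3 high in both (log2 fold change -0.17, standard error 0.22, limma adjusted p = 0.547). Nkain2, a partner of the sodium pump of 1201 kb, stood at 1360.0, 1315 and 1837 in chromatin and 705, 706 and 694 in nucleoplasm. Nucleoplasm hardly varied, and chromatin was about 2 fold above it (log2 fold change 1.08, standard error 0.14, limma adjusted p = 0.00131). This value is that of the matched locus alone, which held little of the signal inside Nkain2. There, 2 other same-strand loci that touch its exons were both called higher. They summed to 23247, 20453 and 27395 in chromatin and 1166, 949 and 1726 in nucleoplasm. Its 16 intronic loci summed to means of 185149 and 11434. Per kb of exon the matched loci of the 5 longest members lay at 0.989, 3.25, 4.90, 65.0 and 234.2, against a median of 486.9 over members.

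At the other end, the 8 highest levels per kb of exon were those of Tenm3 (22085), Nfib (14266), Iqschfp (9944), Diaph3 (9889.7), Magi1 (9184), Gm42416 (7799), Pcdh7 (7444) and Auts2 (5554). Iqschfp is a fusion transcript of the neighbours Iqcj and Schip1, and stood at 46558, 41969 and 33675 in chromatin and 7008, 6563 and 5568 in nucleoplasm. It was called above 4 fold (log2 fold change 2.67, standard error 0.16, limma adjusted p = 5.54e-05). Gm42416 spans other coding genes on its strand, and stood at 29109.8, 28406 and 21657 in chromatin and 19961, 19777 and 14741 in nucleoplasm. Its fractions were close, and the call was near the threshold (log2 fold change 0.54, standard error 0.18, limma adjusted p = 0.0491). These 2 and Adamtsl1, Arhgap26, Atp8a2, Camta1, Fam172a, Foxp1 and Syt1 overlap another coding gene on the same strand, and their reads may belong in part to it. For Arhgap26 the annotated exons total only 0.570 kb, so its level per kb is not comparable.

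Of the list of genes at common fragile sites 15 were members, 12 (80.0%, near the 70.1% of all members) called higher, 0 lower and 4 above 4 fold (median 1.59), with the same counts when the libraries numbered 3 were left out. Besides Tenm3, Auts2 and Nbea its most abundant member was Vps13b, a lipid transfer protein, at 26180.4, 24848 and 21766 in chromatin and 9259, 8840.4 and 8812 in nucleoplasm. Nucleoplasm was almost constant (log2 fold change 1.43, standard error 0.10, limma adjusted p = 9.27e-05). Uncalled were Lrp1b, Macrod2 and Immp2l. The heart-linked list had 18 members, 13 (72.2%, near the 70.1% of all members) called higher, 1 (5.56%) lower and 2 above 4 fold (median 1.27), or 14, 2 and 2 without the libraries numbered 3. Ank3, ankyrin G, which anchors sodium channels, stood at 50268, 45572 and 36544 in chromatin and 14391, 13227 and 12141 in nucleoplasm. Chromatin declined over the replicates, at more than 2 fold above nucleoplasm throughout (log2 fold change 1.73, standard error 0.15, limma adjusted p = 2.07e-04). Utrn, utrophin, links actin to the dystroglycan complex and stood at 43759, 39091 and 30159 in chromatin and 11959, 11329.8 and 14268 in nucleoplasm. Replicate 3 was lowest in chromatin and highest in nucleoplasm (log2 fold change 1.58, standard error 0.17, limma adjusted p = 5.47e-04). Zfpm2, the GATA4 cofactor FOG2, stood at 34714, 30764 and 44338 in chromatin and 4752, 4113 and 6056 in nucleoplasm. In contrast to the summed cardiomyocyte markers, its replicate 3 was the highest of each fraction (log2 fold change 2.88, standard error 0.20, limma adjusted p = 9.20e-05). In the main fit the fall in this list was Ppp2r2b, and the uncalled members were Cdh13, Erbb4, Prkca and Prkg1.

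In none of the 5 functional role lists were 32 members, with 25 (78.1%, near the 70.1% of all members) called higher and 1 lower (Cpq). Without the libraries numbered 3 these counts were 25 and 4. Called above 4 fold were 10 in either fit (31.25%, beside 23.9% of all members in the main fit), and the median was 1.08. The 10 were Wwox, Zfp385b, Lrmda (2.76), Iqschfp, Dennd1a (2.63), B3galt1 (2.62), Unc13c (2.46), Bcas3 (2.42), Thsd4 (2.19) and Psd3 (2.09). Thsd4, which acts in fibrillin microfibrils of the matrix, had the highest chromatin mean of them (means 66280.2 and 14667). Akap6, which tethers protein kinase A at the nuclear envelope of cardiomyocytes, was called at 1.92 (means 24382 and 6433).

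Some relatives are set side by side here; they were picked after their values had been seen, and differences between them were not tested. Among receptor-type phosphatases Ptprk rose (1.57, adjusted p = 3.14e-04), Ptprg fell (-0.67, adjusted p = 0.00187; 0.061 and not called with ERCC scaling), and Ptprm (0.35, adjusted p = 0.0934), Ptprn2 and Ptprd were not called in the fit of all 6 libraries. Of the forkhead genes Foxp1 had 2.66 and Foxp2 0.67, of the Sox genes Sox6 2.22 and Sox5 1.20, and of the Notch coactivators Maml2 1.94 and Maml3 0.67, all called higher. These are values of the matched loci. Another same-strand locus inside Maml3, which touches its exons, was also called higher. It stood at 26859, 25453 and 21076 in chromatin and 1313, 1052 and 1352 in nucleoplasm. Maml2 held such a locus too, with means of 349 and 20.5. Called higher too were the exocyst subunits Exoc4 (0.81) and Exoc6b (0.76), the Rac exchange factors Dock1 (0.90) and Dock4 (0.79), the neuron navigators Nav2 (1.45) and Nav3 (1.26), and the polarity genes Pard3 (2.04) and Pard3b (1.59). Protein kinase C epsilon (Prkce, 1.18, adjusted p = 0.00369) rose, whereas alpha (Prkca, 0.27, adjusted p = 0.233) was not called in the main fit. With ERCC scaling Prkca was called higher too (0.999, limma adjusted p = 0.00244).

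A ligand and its receptor, and a membrane complex of muscle, could be followed as well. Nrg1, the neuregulin ligand, stood at 13025, 11564 and 9394 in chromatin and 5465, 4920.0 and 3743 in nucleoplasm. It rose without overlap (log2 fold change 1.27, standard error 0.19, limma adjusted p = 0.00195). Erbb4, its receptor on cardiomyocytes, stood at 2792, 2747 and 3843 in chromatin and 1929, 1719 and 2679 in nucleoplasm. All chromatin values were above those of nucleoplasm, but it was not called in the main fit (log2 fold change 0.58, standard error 0.21, limma adjusted p = 0.0706). It was called without the libraries numbered 3 (0.60, adjusted p = 0.0158) and with ERCC scaling (1.31, adjusted p = 0.0233). In the dystrophin-associated complex, Utrn (1.58) and delta-sarcoglycan (Sgcd, 1.65, adjusted p = 0.00695) rose, and gamma-1-syntrophin (Sntg1, 1.35, adjusted p = 0.193) was not called.

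Assembled loci that lay within a member on its strand and touched no annotated exon numbered 201 in 86 members, 197 of them with a mean of at least 10. Of the 197, 190 were called higher in chromatin, 6 lower and 186 above 4 fold, with a median log2 fold change of 4.03 (quartiles 3.78 and 4.23), beside 26.9%, 20.9% and 15.7% of all entries. Without the libraries numbered 3 the calls were 190, 3 and 186 and the median 4.18. All 197 had a chromatin mean of at least 10 and 186 also a nucleoplasm mean of at least 10, so that 11 passed the filter only through chromatin, where they are high. Among the 186 the calls were 179 higher, 6 lower and 175 above 4 fold (median 4.02). By position from the 5′ end, the medians in 5 equal bins of the gene were 4.02, 4.02, 4.03, 4.02 and 4.11 (55, 44, 51, 33 and 14 loci). These medians are close to the values of Malat1 (3.82) and Pvt1 (3.93), noncoding RNAs, whereas the messages Gapdh (-2.07) and B2m (-2.67) had negative values. The loci were long, with a median span of 11644 bp (205 to 114760 bp). Signal of such a locus may come from unspliced RNA of the host gene or from a transcript of its own, which cannot be told apart in this table.

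The intronic value hardly depended on the host. For 78 members whose intronic loci summed to a mean of at least 100, 73 had a higher log2 ratio of mean chromatin over mean nucleoplasm in the introns than in the gene locus, with medians of 4.01 and 1.40. Of the 78, 10 reached that mean only through chromatin, where introns are high; among the 68 that reached it in nucleoplasm too, 63 had the higher ratio in the introns (medians 4.02 and 1.57). Across these 78 the rho of the intronic ratio with the log2 fold change of the gene was 0.05. Median intronic fold changes were 4.03 in 147 loci of members called higher, 4.10 in 4 of members called lower and 4.02 in 46 of uncalled members. Ptprg fell as a gene in the main fit but not with ERCC scaling (0.061, not called), and its intronic locus stood at 21724, 19783 and 23652 in chromatin and 1239, 957.6 and 1643 in nucleoplasm. This locus was called higher (log2 fold change 4.11, limma adjusted p = 3.58e-05). The 2 intronic loci of Ppp2r2b, a gene at 0.37 and not called with ERCC scaling, gave 4.11 and 4.09, while the locus in Slc39a11, 447 bp long, fell with its gene (-0.66, adjusted p = 0.0148). In 33 members the introns summed to more than the gene locus in chromatin, and in 15 in nucleoplasm.

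**Figure D3:**
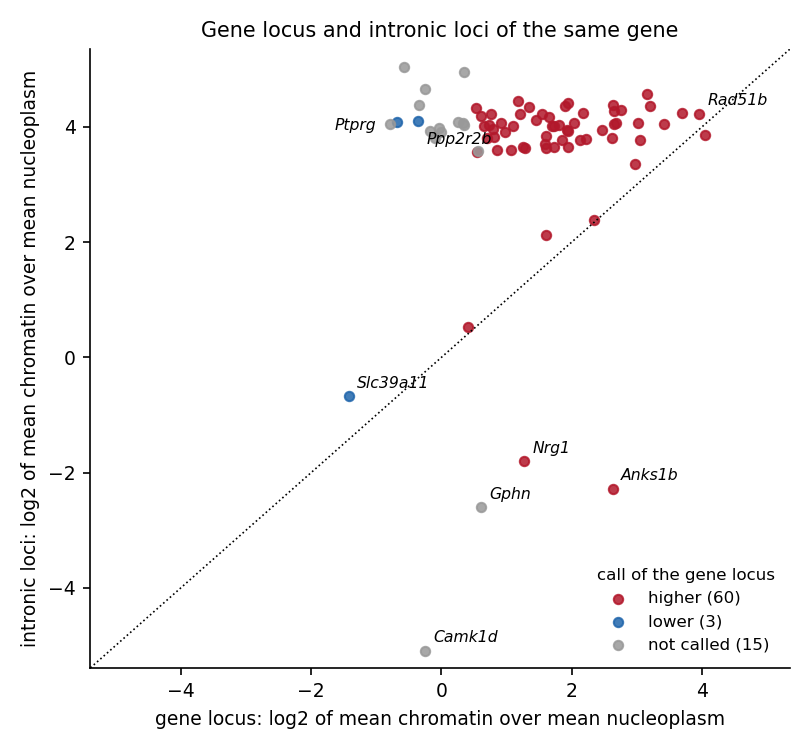
Each point is 1 of 78 very long genes with intronic loci: the log2 ratio of mean chromatin over mean nucleoplasm for the gene locus (horizontal) and for the sum of its intronic loci (vertical), coloured by the limma call of the gene locus; the dotted line marks equal ratios. Most points form a band near 4 whatever the gene locus does (median 4.01 against 1.40), and 5 genes lie below 0.

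Negative values were found for 7 of the 197 intronic loci, all of them 447 bp or shorter except 1 in Nrg1 (6269 bp). The intronic locus of Camk1d, a calcium and calmodulin dependent kinase, spans 340 bp and stood at 837.5, 12101 and 1714 in chromatin and 433313, 19723 and 44857 in nucleoplasm. The nucleoplasm libraries differed among themselves by over 20 fold, with replicate 1 far above all others (log2 fold change -4.81, standard error 1.44, limma adjusted p = 0.0350). An intronic locus of Gphn, the gephyrin gene, spans 326 bp and stood at 238.9, 6291 and 1212 in chromatin and 355026, 9344 and 22619.6 in nucleoplasm. It had the same order of libraries and was not called (-5.11, adjusted p = 0.0507). These 2 loci alone took 0.767% of nucleoplasm replicate 1, against 0.0252% and 0.0767% of replicates 2 and 3. Besides Slc39a11, the others lay in Nrg1 (-2.12), Anks1b (-2.28), Cdkal1 (-1.17) and Ptprd (-0.76). With all same-strand entries inside the spans counted, the share of very long genes was 5.65%, 5.48% and 5.68% in chromatin and 2.04%, 1.08% and 1.53% in nucleoplasm, and without the 2 loci the nucleoplasm shares were 1.28%, 1.05% and 1.45%.

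Long reads from chromatin placed 17014 and 16963 TPM on the sense strand inside members in libraries 1 and 2, or 1.70% of each. In 128 members sense TPM was above 0 in both libraries, in 3 it was above 0 in 1 library, and 3 (Epha6, Foxp2 and Vps13b) were listed at 0. Averaged over the libraries, the median member had 89.1 TPM and the highest 551.5, and the rho of sense TPM between the libraries was 0.94 (n = 134). Most of this was intronic: of 4719 sense models 4286 (90.8%) touched no exon, and these held 83.2% and 83.9% of the sense TPM. Models without exon contact had a median span of 1492.5 bp, and models touching an exon 16758 bp. A model covering at least 90% of the gene was present in 28 members, and one covering at least 50% in 53.

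Along the genes the sense TPM was spread evenly but for the 3′ end. Cut into 5 equal bins from the 5′ end, the genes held 20.7%, 22.0%, 20.3%, 21.2% and 15.8% in library 1 and 21.1%, 21.9%, 19.8%, 23.0% and 14.1% in library 2. The drop in the last bin came from models without exon contact, at 14.5% and 12.6% of their TPM, while exon-touching models held 22.4% and 22.4% of theirs there.

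The 5 members with the most sense TPM were Camk1d (375 and 728), Cdh13 (573 and 482), Nkain2 (576 and 438), Nfib (514 and 457) and Lpp (456 and 343). For Camk1d a single model, over the 340 bp intronic locus named above, held 342.4 and 681.6 of it. As a gene Camk1d stood at 176, 158 and 640.1 in chromatin and 187, 195 and 779 in nucleoplasm in short reads. Replicate 3 was high in both fractions and the ranges overlapped (log2 fold change -0.22, standard error 0.77, limma adjusted p = 0.827). The matched locus of Cdh13, T-cadherin, stood at 8963, 10281 and 5675 in chromatin and 16830.4, 17489 and 8543 in nucleoplasm. Replicates 1 and 2 of nucleoplasm were above all chromatin values, and replicate 3 of nucleoplasm was among them (log2 fold change -0.76, standard error 0.35, limma adjusted p = 0.135; without the libraries numbered 3, -0.84, adjusted p = 0.0127). Lpp, a LIM protein of focal adhesions, stood at 71948, 70670.3 and 51620.4 in chromatin and 46988, 43117 and 32773 in nucleoplasm. The ranges were separate but near (log2 fold change 0.66, standard error 0.20, limma adjusted p = 0.0375). Models without exon contact made up 99.96% of the TPM in Camk1d, 95.9% in Cdh13, 96.4% in Nkain2, 84.8% in Lpp and 36.4% in Nfib.

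The long-read libraries carry no strand of origin, and antisense TPM inside members was 10241 and 11055, or 60.2% and 65.2% of the sense sum. In 39 members antisense exceeded sense TPM. The largest antisense values were those of Lrp1b (852.3 and 1540.2) and Dlg2 (687.5 and 946.5, with 0 and 2.04 sense), both among the 5 longest genes, followed by Enox1 (776.6 and 600.8) and Nckap5 (463.4 and 884.0). Between the platforms the order of members was loosely kept, with a rho of 0.19 between sense TPM and the chromatin mean of the gene locus (n = 134). Between sense TPM and the chromatin sum of the intronic loci the rho was 0.40 (n = 134). In the latter, 48 members without an intronic locus entered at 0, so the rho in part reflects having such a locus. Of the 197 intronic loci 195 were touched by a sense long-read model, but only 46 shared at least 0.5 of the joint span with a model.

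**Figure D4:**
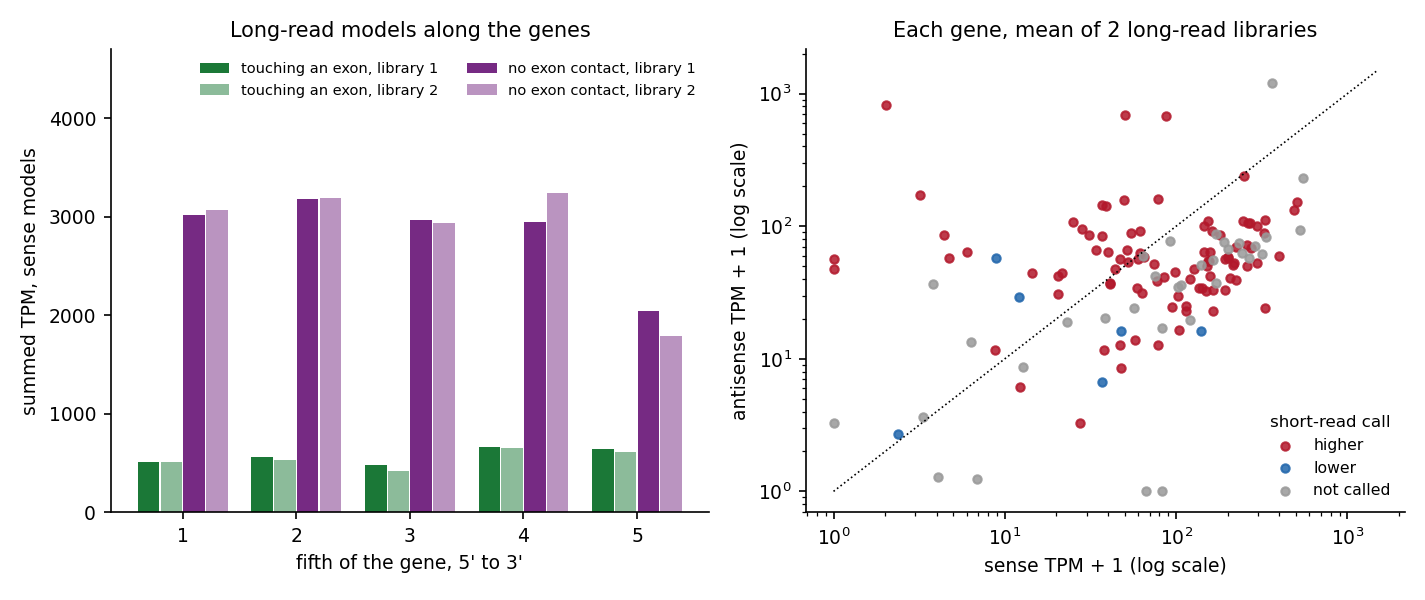
Left, summed long-read TPM of sense models in 5 equal bins of the gene from 5′ to 3′, for models touching an exon and models without exon contact, in each of 2 chromatin libraries. Right, sense and antisense TPM plus 1 of each very long gene on log axes (mean of 2 libraries), coloured by the short-read call; models without exon contact hold most of the TPM (83.2% and 83.9%), and 39 genes lie above the line of equal TPM.

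Genes on either side of each threshold were compared without a test. By length, Bnc2 (400.2 kb, log2 fold change 0.86), Dst (400.4 kb, 2.26) and Dock4 (400.9 kb, 0.79) were just inside, and Adk (396.0 kb, 2.07) and Ano4 (395.8 kb, 3.04) just outside. By mean level, Tenm4 (12.01 counts, 0.03), Unc5d (13.2, 0.01) and Pcsk5 (19.2, 0.29) were inside, and Fhit (7.17, 0.64), Gabrb1 (5.49, 1.50) and Dlgap2 (4.78, 1.80) outside, so that the inner 3 were flatter than the outer 3. By Jaccard index, Nfib (0.51), Arhgap26 (0.57, log2 fold change 1.34) and Auts2 (0.66) were inside, and Sh3gl2 (0.42, -0.21), Zfhx3 (0.26, 0.83) and Slc7a11 (0.13, 0.20) outside. A further 48 genes had a matching locus but a mean below 10, 12 of them at 0 in every library, and 148 had no locus of sufficient overlap.

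Machinery of long-gene transcription, a list of topoisomerases, elongation factors, kinases and RNA-binding factors, was matched for 30 of 31 symbols, Spt6 being another name of the listed Supt6. Calls were 9 higher and 13 lower, with 8 neither and a median of -0.08, against 26.1% higher and 45.2% lower among the 10102 coding loci, so the list as a whole is a description. Among the rises were Sfpq (1.55, adjusted p = 1.61e-04), which binds RNA of long genes, and the elongation kinases Cdk12 (1.25, adjusted p = 4.47e-04) and Cdk13 (1.38, adjusted p = 1.36e-04). Among the falls were Supt4a (-1.63, adjusted p = 1.66e-04), Ssrp1 (-1.36), Nono (-1.33) and both type II topoisomerases, Top2a (-0.58) and Top2b (-0.46). The values of this list are as deposited and are not given here with ERCC scaling. Top2a, the most abundant, stood at 50128, 48256 and 41088 in chromatin and 73054, 69824 and 65382 in nucleoplasm. Its nucleoplasm values were all above chromatin (log2 fold change -0.58, standard error 0.12, limma adjusted p = 0.00927). Top1, which relaxes supercoils ahead of the polymerase, stood at 8265, 7372 and 7315 in chromatin and 7614, 6453 and 6751 in nucleoplasm. The ranges overlapped (log2 fold change 0.14, standard error 0.10, limma adjusted p = 0.307).

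Promoters, which the choice of members did not use, were looked up by symbol in RefSeq (GRCm38.p6), from 250 bases before to 50 after a listed start, for 99 members. For each the listed start nearest to the 5′ end of the assembled locus was taken. Only 74 of these lay within 1000 bases of the annotated start of the member, a limit set after seeing the data, and the other 25 lay farther inside the gene, as in Rasgef1b (476138 bases in). Of the 74 at the annotated start 53 (71.6%) were CpG-rich, here meaning at least 55% G and C and an observed over expected CpG of at least 0.6, against 30.3% of all 32851 promoters of that table. All 99 gave 59.6%, and the 25 farther inside 24.0%. TATAAA on either strand was in 5.41% of the 74 and 13.6% of all promoters, and CCAAT on either strand in 41.9% and 37.4%. The shares of all promoters were taken without the choice of 1 start per gene and without the limits on level and place set for the 74. They are therefore not like for like, and whether gene length has a part in the difference was not tested. By call, 35 of 50 higher, 2 of 4 lower and 16 of 20 uncalled members were CpG-rich. For the 2 largest rises and the 2 largest falls with a window at the annotated start, the windows are printed to show the CpG they hold; capitals mark each CG, and the strand follows the coordinates.
Rad51b, chr12:79297032-79297331, plus: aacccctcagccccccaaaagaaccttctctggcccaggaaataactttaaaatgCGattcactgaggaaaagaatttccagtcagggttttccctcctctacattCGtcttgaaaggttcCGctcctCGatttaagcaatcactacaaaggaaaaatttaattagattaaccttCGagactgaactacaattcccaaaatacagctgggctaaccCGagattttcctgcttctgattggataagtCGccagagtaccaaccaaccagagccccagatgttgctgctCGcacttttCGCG
Fgf12, chr16:28753194-28753493, minus: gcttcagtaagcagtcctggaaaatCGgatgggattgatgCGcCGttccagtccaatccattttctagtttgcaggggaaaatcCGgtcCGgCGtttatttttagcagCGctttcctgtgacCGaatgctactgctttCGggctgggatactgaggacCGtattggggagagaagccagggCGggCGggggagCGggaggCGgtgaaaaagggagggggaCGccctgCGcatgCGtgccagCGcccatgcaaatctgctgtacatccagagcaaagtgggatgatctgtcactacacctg
Spock3, chr8:62950982-62951281, plus: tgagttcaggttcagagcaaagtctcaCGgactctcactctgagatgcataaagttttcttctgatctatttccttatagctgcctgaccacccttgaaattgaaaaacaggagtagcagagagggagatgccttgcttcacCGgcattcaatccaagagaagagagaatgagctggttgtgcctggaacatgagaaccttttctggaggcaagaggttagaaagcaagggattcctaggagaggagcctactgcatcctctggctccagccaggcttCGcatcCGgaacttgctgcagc
Slc39a11, chr11:113650043-113650342, minus: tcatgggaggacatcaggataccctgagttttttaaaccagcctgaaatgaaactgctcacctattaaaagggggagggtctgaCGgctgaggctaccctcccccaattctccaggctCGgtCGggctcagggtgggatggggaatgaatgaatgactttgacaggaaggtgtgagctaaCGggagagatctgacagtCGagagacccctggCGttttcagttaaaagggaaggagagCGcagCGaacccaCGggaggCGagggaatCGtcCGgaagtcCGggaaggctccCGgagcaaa

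Rad51b had 10 CG and 45.0% G and C, Fgf12 18 and 56.3%, Slc39a11 14 and 55.3%, and Spock3 4 and 49.0%. CCAAT was found on the printed strand of Fgf12 and Slc39a11 and on the other strand of Fgf12 and Rad51b, and TATAAA on neither strand of any. A match or its absence is only a description of these windows.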

How the data were processed

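The authors aligned short reads with HISAT2 2.1.0 to mm10, assembled them with StringTie and deposited coverage-derived gene counts divided by DESeq2 size factors. Long-read values are the StringTie TPM that the authors deposited after minimap2 alignment. The short-read signal divided by its smallest step gave whole reads, within 0.001, for 100% of values in each library. Assembled loci were named by the GENCODE M21 gene with the largest same-strand Jaccard index. Members and gene lists were chosen with earlier results of these data known. The fractions were compared with limma 3.58.1 (R 4.3.3, lmFit and eBayes with trend) on log2(normalized count + 1) over all entries above 0, with Benjamini-Hochberg adjustment. Recovered reads served edgeR 4.0.16 and DESeq2 1.42.0 as alternatives. Long-read models were counted inside a gene when they lay wholly within its span. Named genes were the 8 highest per kb of exon, the 8 largest rises and falls among called members with a mean of at least 100 and 1 sign over the 3 differences between libraries of equal number, the 5 longest, the 5 with most sense TPM, up to 4 of each role list by mean, the threshold neighbours and the controls Malat1, Pvt1, Gapdh and B2m; other names are counts of few genes or were picked after their values were seen. Tables were handled in Python 3.11.15 with numpy 2.4.6, pandas 2.3.3 and scipy 1.17.1. Results of some single genes of the lists and of 1 threshold neighbour are not reported.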

Additional observations from a re-analysis of the deposited data

How the results depend on the processing

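Of 49 named members, 34 kept direction and side of the threshold under all 16 other fits, and 41 under every left-out library. No member called in the main fit was called the other way in another. Counts of calls higher stayed between 79 and 110. DESeq2 called 97 higher, 8 lower and 32 above 4 fold, and edgeR 87, 7 and 28. Scaling to ERCC standards gave 0 lower, 65 above 4 fold and a median of 2.004, with Ptprg (0.061) and Ppp2r2b (0.37) turned positive. The median was 1.21 with a pseudocount of 10, 1.16 with edgeR, 1.20 with quantile normalization, and 1.19 to 1.36 when 1 library was left out. Without both libraries numbered 3, added after seeing the data, 12 were called lower; the cause was not tested.

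With the replicate block, limma called 105 higher and 12 lower. The labels trace the fractions to 3 cultures without saying that equal numbers mark 1 culture. Same-numbered libraries deviated together weakly over all entries (r 0.0975, 0.0883 and 0.222), of which 2 are under the 0.1 asked of every pair, so the numbers were not taken as pairs, although each library correlated best with its own number over all entries. Over members r was 0.830, 0.848 and 0.961, but chromatin replicate 2 correlated as well with nucleoplasm replicate 1 (0.849).

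Genes of at least 300 kb gave 153 higher, 10 lower, 55 above 4 fold and a median of 1.12. Those of at least 600 kb gave 35, 1, 11 and 1.45. The number of genes differs between the sets, so their counts cannot be compared directly. The cause of the difference in medians was not tested. All same-strand entries gave shares of 5.60% and 1.55%, and 5.59% and 1.26% without the 2 short loci, a choice made after seeing the data. Sense TPM was 18252 with any overlap and 14846 from models above 0 in both libraries.

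Limits: 3 libraries per fraction, of which replicate 3 stood apart; main values not scaled to the ERCC standards; loci defined by assembly, with reads divided among overlapping models; long reads without strand or a nucleoplasm counterpart. Spans in the table do not show splicing, and members with few reads vary with depth.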
